A study of Mus musculus with 9 samples.

Results

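Mitochondrial biogenesis is directed from the nucleus, and 8 genes of that programme, out of 32427 genes in the matrices, were followed here by their symbols: the coactivators Ppargc1a and Ppargc1b, the nuclear transcription factors Esrra, Nrf1 and Gabpa, and the mitochondrial transcription genes Tfam, Tfb2m and Polrmt. They were read in each mouse, group and marker-defined cell type beside the share of unique molecular identifiers (UMIs, each standing for 1 captured RNA molecule) that came from the 13 mitochondrially encoded genes. The samples were droplet single-cell RNA libraries from part of a kidney of 9 male C57BL/6 mice, 6 weeks old at the start, with 3 mice in each of 3 groups. Control mice had intraperitoneal saline in place of the drug. AKI-CKD mice had 4 weekly intraperitoneal injections of cisplatin at 8 mg/kg, a platinum drug toxic to kidney tubules, and served as a model of acute kidney injury passing into chronic kidney disease. AKI-CKD + EGT mice had the same cisplatin course and L-ergothioneine (EGT), a dietary thiol antioxidant, at 0.5 mg/mL in the drinking water from shortly before the first injection to the end, with kidneys taken at 8 weeks. All mice were of the same strain with no allele or transgene named, and none of these 3 groups received ergothioneine without cisplatin.

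Ppargc1a (PGC-1alpha) and Ppargc1b (PGC-1beta) do not bind DNA themselves but dock on transcription factors such as the oestrogen-related receptor Esrra and nuclear respiratory factor 1 (Nrf1, not the antioxidant factor Nrf2) and raise the transcription of respiratory chain genes. Nrf1 and Gabpa, the DNA-binding subunit of the ETS-family complex once called NRF-2, also drive the genes for the mitochondrial transcription machinery. That machinery is encoded in the nucleus and works inside the organelle: Polrmt is the RNA polymerase, Tfb2m opens the promoter, and Tfam bends and packages mitochondrial DNA. In the kidney the programme matters because the tubule segments that reabsorb most sodium are dense with mitochondria, and PGC-1alpha is known to be sensitive to acute tubule injury.

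The promoters of the members were searched for motifs of the nuclear factors. RefSeq promoters of 300 bases, reaching 250 bases before and 50 bases after the annotated start, were given for 7 of the 8 genes (8 promoters, build GRCm38.p6). On both strands 4 motifs were searched: the Nrf1 motif (GCGCA and GCGC parted by 1 base of any kind), the ETS motif CCGGAAGT that Gabpa can bind, the receptor motif TCAAGGTCA that Esrra can bind, and the cyclic AMP response element TGACGTCA. Of the 7 genes only Tfam and Polrmt held a match, and they are shown because each carries a motif for a factor in the same group of genes. Capitals mark the motif, and each run is read 5′ to 3′ on the strand of its gene.
Tfam, ETS motif, build GRCm38.p6, chr10:71238072-71238103, minus strand: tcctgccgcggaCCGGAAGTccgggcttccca
Polrmt, Nrf1 motif, build GRCm38.p6, chr10:79746578-79746599, minus strand: tccctgcaggcgGCGCGTGCGC
Polrmt, Nrf1 motif, build GRCm38.p6, chr10:79746572-79746593, minus strand: caggcggcgcgtGCGCGTGCGC
With the start base counted as 0, the Tfam motif spanned bases -47 to -40. The Polrmt matches spanned -6 to 3 and 0 to 9, overlapped each other, and read as the motif on the opposite strand. The Nrf1 motif occurred in 4.60% of all 32851 promoters searched, the ETS motif in 3.89%, the Esrra motif in 0.423% and the cyclic AMP element in 1.79%. The matches are letters in a window; binding was not measured in these samples.

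The libraries held 216680 barcodes and between 70106161 and 101525691 UMIs each. Of these barcodes 196925 were kept as cells, having 1000 or more UMIs, 500 or more genes and a mitochondrial share of no more than 15%, at a median of 2714 UMIs and 1147 genes per cell. The mitochondrial limit removed from 0.909% to 27.7% of the cells of a library, most in AKI-CKD + EGT mouse 3 and next in Control mouse 1 with 17.0%. Of 24 clusters, 22 could be named from marker genes, giving 12 cell types, of which proximal tubule (PT, 156510 cells), distal convoluted tubule (DCT, 12673 cells) and loop of Henle (LOH, 7296 cells) were large enough for comparisons between groups in every mouse. The DCT class joined 7781 cells led by Slc12a3, Pvalb and Trpm6 with 4892 cells led by S100g, Klk1 and Calb1, in which all 9 DCT markers also stood at least 2-fold up. S100g, Klk1 and Calb1 are also known from the connecting tubule, for which no marker list was set, so values that turn on these cells are given without them as well, an alternative chosen after seeing the data. RNA of the proximal tubule was present throughout: the summed level of 14 PT markers in the other 11 types was between 32.9% (intercalated cells of the collecting duct, CD-IC) and 72.9% (podocytes) of the PT level. A level at or under that of PT in another cell type can therefore come in part from PT RNA in the same droplet. The size of that part was not tested for single genes. Some 62337 barcode names occurred in more than 1 library, but 0 of them shared both UMI total and gene number with their namesake.

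Ppargc1a was the member with the sharpest pattern along the nephron. Levels are given as CPM, the gene's UMIs per 1000000 UMIs of that cell type in that mouse, over all 9 mice. In principal cells of the collecting duct (CD-PC) the lowest, median and highest mouse stood at 158.8, 204.9 and 284.9 CPM, and the mean was 203 ± 39.8 (SD, n = 9). LOH followed at 147 ± 37.0 CPM, DCT at 138 ± 25.5 and CD-IC at 129.96 ± 24.1. Those 3 distal levels lay within the spread of their differences, whereas CD-PC exceeded LOH in 8 of 9 mice. PT cells, which make up most of the kidney cortex, held only 49.5 ± 10.3 CPM, with a lowest mouse at 36.7 and a highest at 70.1. Each of the 4 distal types exceeded PT in 9 of 9 mice, by 4.11 times in CD-PC, 2.97 times in LOH, 2.79 times in DCT and 2.63 times in CD-IC. Being above the PT level itself, these distal levels were more than PT RNA in the same droplets could hold. The values of DCT, LOH and CD-PC rest on where the clustering drew their borders. Without the Harmony correction the DCT class held 4482 cells and the LOH class clusters of 17174 and 4733, and Ppargc1a stood in their cells of higher and of lower mitochondrial share at 256 and 224 CPM without mitochondrial UMIs in DCT and at 122 and 86.4 in LOH. With the correction the same values were 147 and 144 in DCT and 182 and 136 in LOH, so the order of these segments depends on that step. The CD-PC cluster held 2570 cells with the correction and 4707 without it, then with Klk1 and S100g among its leading genes. Its Ppargc1a level without the correction was not read, so the place of CD-PC at the top is shown only with the correction. Within the DCT class the cells led by Slc12a3 held 168 ± 32.1 CPM (SD, n = 9) of Ppargc1a and those led by S100g 86.3 ± 22.3, lower in 9 of 9 mice. Nrf1 and Ppargc1b were likewise higher in the cells led by Slc12a3 in 9 of 9 mice, at 20.7 against 9.07 CPM and 48.6 against 28.3. Below PT the order ran through cycling cells (48.2 CPM), macrophages (38.8 CPM) and the remaining types down to T cells (29.7 CPM), with cycling cells above macrophages in 7 of 9 mice as the only neighbouring pair apart by more than the spread of its difference.

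**Figure D1:**
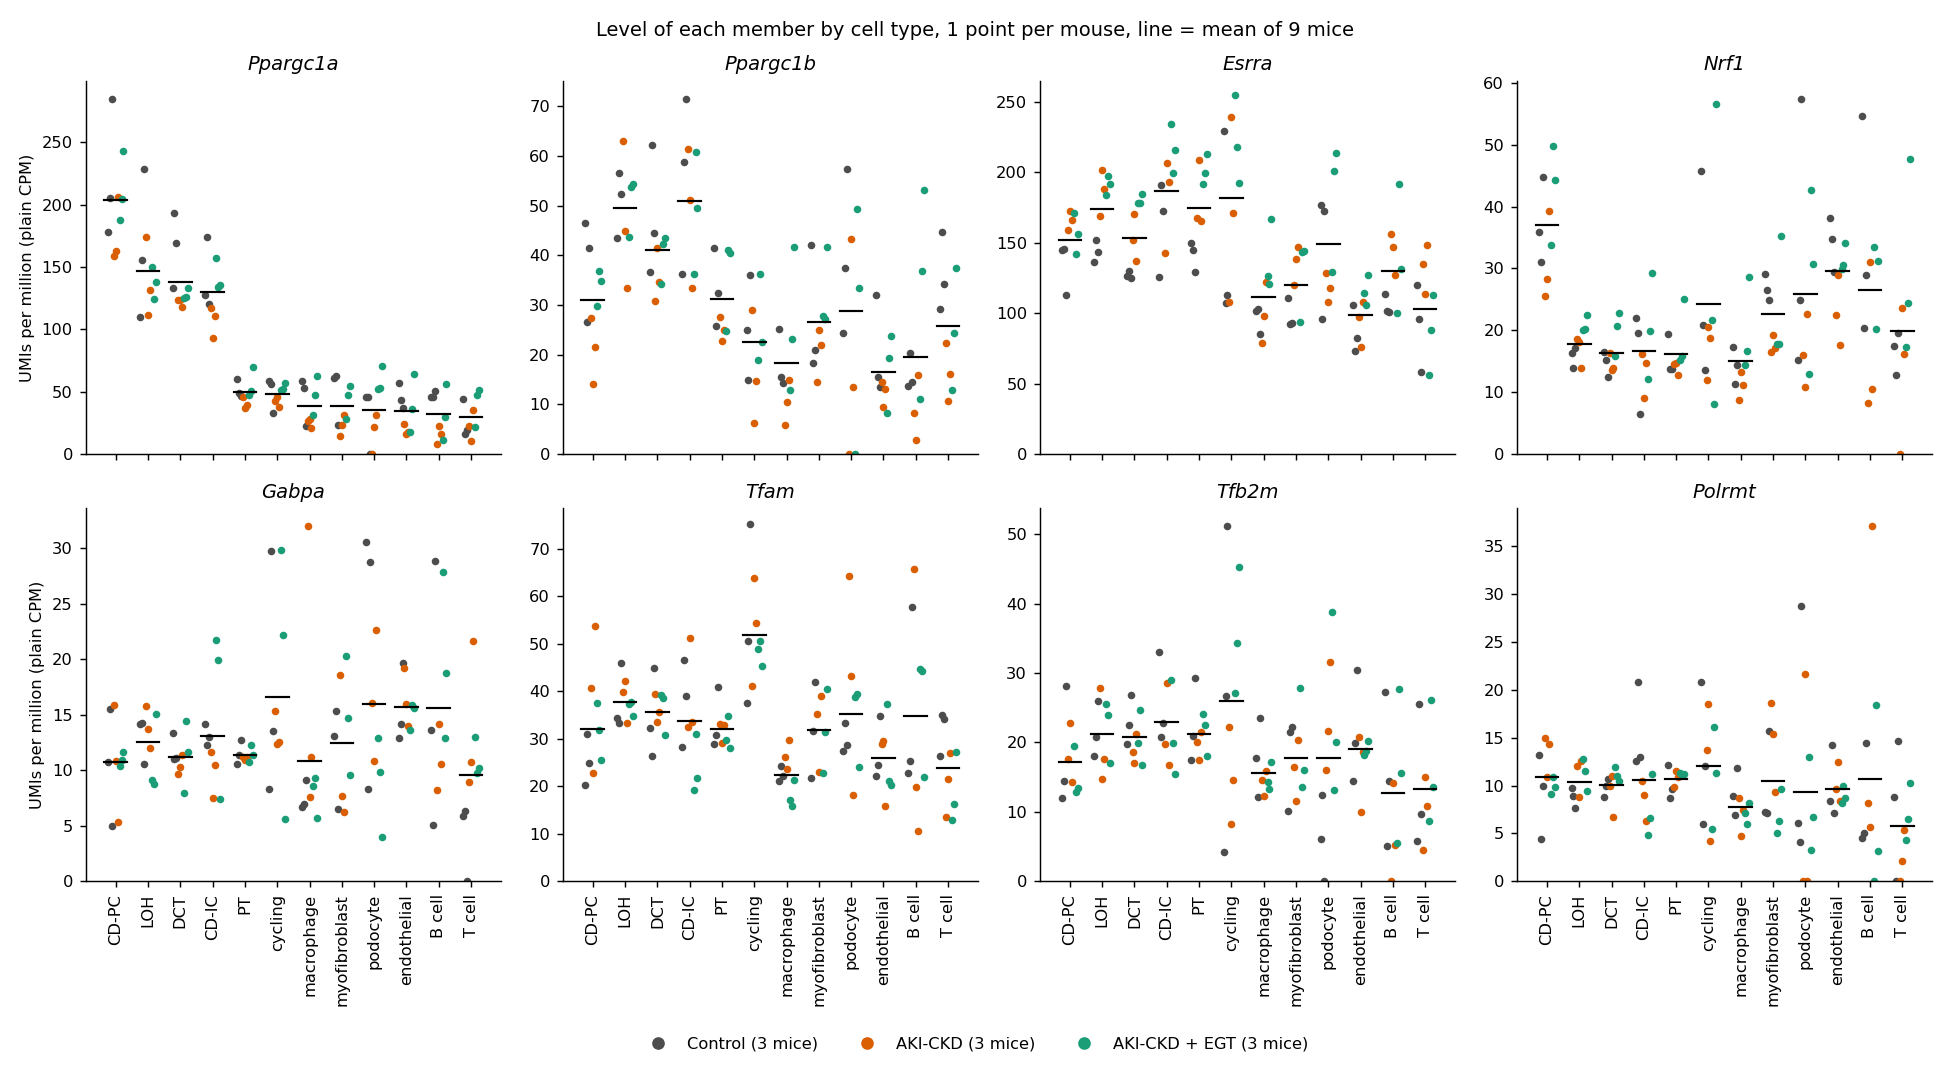
Level of each of the 8 genes in the 12 cell types, in CPM; points are the 9 mice and the bars mark the means. Ppargc1a stood at 203 CPM in collecting duct principal cells against 49.5 CPM in the proximal tubule, whereas Gabpa ran only from 9.61 to 16.6 CPM, Tfb2m from 12.8 to 26.0 and Polrmt from 5.78 to 12.01 over the types.

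Ppargc1b, the paralogue, differed less between segments. Its highest levels were in CD-IC (51.0 ± 13.4 CPM) and LOH (49.5 ± 8.89 CPM), followed by DCT (41.1 ± 9.26 CPM) and PT (31.2 ± 7.80 CPM). The DCT level joins 48.6 CPM in the cells led by Slc12a3 and 28.3 in those led by S100g. This order holds for the clustering with the Harmony correction, which moved the border of DCT and LOH as given above. LOH exceeded PT in 9 of 9 mice, by 1.58 times, and CD-IC and DCT did so in 8 of 9. CD-PC, where Ppargc1a was highest, held 31.0 ± 10.1 CPM of Ppargc1b, level with PT. No neighbouring pair in the order of Ppargc1b differed beyond the spread of its difference, down to endothelial cells at 16.6 ± 7.47 CPM.

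The nuclear factors showed 3 different patterns. Esrra, the receptor through which PGC-1 reaches many respiratory genes, differed by less than Ppargc1a over the tubule: 187 CPM in CD-IC, 181 in cycling cells, 174 in PT, 174 in LOH, 153 in DCT and 152 in CD-PC, falling to 98.8 in endothelial cells. LOH exceeded DCT in 9 of 9 mice, and PT exceeded DCT in 9 of 9. The DCT level of Esrra joins 163 CPM in the cells led by Slc12a3 and 139 in those led by S100g. These orders hold for the clustering with the Harmony correction, which moved the border of DCT and LOH as given above. Nrf1 was highest in CD-PC at 37.0 ± 8.18 CPM, which was 2.29 times the PT level and above it in 9 of 9 mice, and next in endothelial cells at 29.6 ± 6.27 CPM, also above PT in 9 of 9. As for Ppargc1a, the CD-PC level without the Harmony correction was not read, so this top place of CD-PC is shown only with it. PT held 16.1 ± 3.88 CPM of Nrf1, beside 16.4 in DCT, 17.8 in LOH and 15.1 in macrophages, levels that did not differ beyond their spread. The DCT level of Nrf1 joins 20.7 CPM in the cells led by Slc12a3 and 9.07 in those led by S100g, so it rests on the joined class. Gabpa ranged only from 9.61 CPM in T cells to 16.6 CPM in cycling cells, and no neighbours in its order differed beyond the spread.

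Of the mitochondrial transcription genes only Tfam showed a step between cell types. It was highest in cycling cells at 51.9 ± 11.6 CPM, above LOH, the next type at 37.7 ± 4.31 CPM, in 9 of 9 mice. PT held 32.1 ± 4.00 CPM and macrophages, at the bottom, 22.4 ± 4.26. Tfb2m ranged from 12.8 CPM in B cells to 26.0 CPM in cycling cells and Polrmt from 5.78 CPM in T cells to 12.01 CPM in cycling cells, with no neighbours apart by more than their spread. The 701 cycling cells gave 208 UMIs of Tfam over all mice.

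Within the proximal tubule all 8 genes were higher in the joined clusters holding markers of S1, the first convoluted segment, than in the joined clusters holding markers of S3, the straight segment, in 9 of 9 mice each. The S1 class joined 10401 cells with 4 of 6 S1 markers and 0 of 8 injured-tubule markers at least 2-fold up with 9813 cells that had 3 and 2 and were led by the stress and chemokine genes Cxcl10, Cxcl1, Osr2 and Angptl4. Against S3 the former alone had a Ppargc1a ratio of 2.51 and the latter 2.12, each higher in 9 of 9 mice. For Tfam, Tfb2m and Polrmt the former was higher in 8 of 9. The S3 class joined 2 clusters as well, led by Cyp2a4 and by Gm37760, with Ppargc1a at 20.8 and 43.4 CPM. Ppargc1b stood in them at 14.7 and 41.2 CPM, beside 38.3 and 40.1 in the S1 clusters, and Nrf1 at 7.35 and 18.1, beside 19.5 and 17.3. For Ppargc1b and Nrf1 the difference between the classes therefore rests on the S3 cluster led by Cyp2a4. Gabpa stood in the S3 clusters at 8.35 and 12.6 CPM, beside 13.5 and 13.7 in the S1 clusters. Tfam stood at 28.2 and 33.7, beside 36.0 and 33.8, and Tfb2m at 17.5 and 21.1, beside 23.5 and 22.2. For Gabpa, Tfam and Tfb2m the difference thus rests mainly on the same S3 cluster. Esrra was lower in both S3 clusters, at 131 and 167 CPM beside 212 in each S1 cluster. A further 103232 PT cells fell in neither class. The clusters came from the same cells, without these genes among the 2000 variable genes that made them, so the values are a description. Ppargc1a differed most, with 71.4 ± 12.1 CPM in S1 (48.8 to 89.0) and 30.8 ± 7.34 CPM in S3 (21.3 to 46.9), a ratio of 2.32. Nrf1 followed with a ratio of 1.51 (18.4 against 12.2 CPM), Ppargc1b with 1.48 (39.2 against 26.5 CPM) and Esrra with 1.44 (212 against 147 CPM). The mitochondrial transcription genes and Gabpa differed by less: ratios of 1.33 for Gabpa, 1.29 for Polrmt, 1.19 for Tfb2m and 1.14 for Tfam. The mean mitochondrial UMI share was 3.12% in S1 and 2.88% in S3, from 1.46 to 5.17% and from 1.15 to 5.06% over the mice, and AKI-CKD mouse 2 was the exception to a higher share in S1, at 1.82 against 2.20%. By cluster the mean share was 3.23 and 3.00% in the S1 clusters led by Snhg11 and Cxcl10. It was 3.28 and 2.40% in the S3 clusters led by Cyp2a4 and Gm37760. The lower share of S3 therefore rests on the cluster led by Gm37760, whereas the lowest member levels were in that led by Cyp2a4.

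The genes whose pattern over the 12 cell types was most like that of each member were read by Pearson's r of log2 levels over 8884 genes of at least 10 CPM on average, as a description in which all points share the same libraries. Ppargc1a was most like Cabcoco1 (r = 0.98), Nudt4 (r = 0.96) and 0610040J01Rik (r = 0.96). Ppargc1b was most like Nnt, the mitochondrial transhydrogenase that makes NADPH (r = 0.93), 2310061I04Rik (r = 0.92) and Fastk (r = 0.91). Esrra was most like Uqcc5, an assembly factor of complex III (r = 0.95), Prkaa2, a catalytic subunit of the energy sensor AMPK (r = 0.94), and Hsd17b4, a peroxisomal fatty acid oxidation enzyme (r = 0.94). Nrf1 was most like Setd5 (r = 0.96), Mapk6 (r = 0.92) and Tbc1d9b (r = 0.89), and Gabpa like Wdr53 (r = 0.87), Nelfcd (r = 0.86) and Eif2b2 (r = 0.83). Tfam was most like Mpv17l2, a factor of the mitochondrial ribosome (r = 0.94), Cul4b (r = 0.94) and Bola1 (r = 0.93). Tfb2m was most like Sucla2, a subunit of succinyl-CoA ligase of the citric acid cycle (r = 0.92), Msrb2 (r = 0.91) and Mrps31, a mitochondrial ribosomal protein (r = 0.91). Polrmt was below the minimum level. Among the members themselves Ppargc1a and Ppargc1b had r = 0.77 and Ppargc1a and Nrf1 r = -0.05.

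The comparison of AKI-CKD with Control mice addressed whether the programme stood at another level at 8 weeks, after the cisplatin course. Esrra was higher and the PGC-1 coactivators were lower on average in AKI-CKD in all 3 tubule segments, though in LOH the coactivators' direction rests on single mice, and 0 of the 8 members passed the test in any of them. The UMIs of each cell type were added up in every mouse, scaled by the trimmed mean of M values (TMM), and tested over the 9 mice with edgeR's quasi-likelihood test and Benjamini-Hochberg adjustment over all genes, with a threshold of 0.05 on the adjusted p. The p-values measure the spread between these mice.

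Esrra was the member furthest from its Control level in PT and LOH, while in DCT Ppargc1a and Ppargc1b were further. That order in DCT rests on Control mouse 2, without which the log2 differences were 0.34 for Esrra, -0.25 for Ppargc1a and -0.12 for Ppargc1b. In PT the Control mice stood at 141, 154 and 133 TMM-scaled CPM, the AKI-CKD mice at 175, 221 and 186, and the AKI-CKD + EGT mice at 190.2, 189.8 and 176. All AKI-CKD mice were thus above all Control mice. The log2 difference between AKI-CKD and Control was 0.44 (SE 0.13, edgeR adjusted p = 0.351, unadjusted p = 0.00696). In DCT the Control mice stood at 131, 130.5 and 120.3 CPM, the AKI-CKD mice at 154, 178 and 142, and the AKI-CKD + EGT mice at 172, 169 and 183, with a log2 difference of 0.31 (SE 0.14, edgeR adjusted p = 0.524) between AKI-CKD and Control. In LOH the Control mice stood at 143, 157 and 137 CPM, the AKI-CKD mice at 167, 204 and 189.8, and the AKI-CKD + EGT mice at 177, 194 and 193, with a log2 difference of 0.36 (SE 0.14, edgeR adjusted p = 0.347). The groups AKI-CKD and Control did not overlap in any of these segments, but segments of 1 mouse share a kidney and a library and, as given above, PT RNA.

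Ppargc1a moved the other way on average. In DCT the Control mice stood at 138, 194 and 163 CPM, the AKI-CKD mice at 126, 129 and 123, and the AKI-CKD + EGT mice at 121, 119 and 131. All AKI-CKD mice lay below all Control mice, with a log2 difference of -0.39 (SE 0.15, edgeR adjusted p = 0.506). In PT the Control mice stood at 57.1, 52.2 and 47.3 CPM and the AKI-CKD mice at 47.8, 39.0 and 44.3, so the groups overlapped, with a log2 difference of -0.26 (SE 0.13, edgeR adjusted p = 0.490). In LOH, where the Control mice ranged from 115 to 218 CPM, the difference was -0.24 (SE 0.21), and -0.0073 without Control mouse 3. Ppargc1b differed by -0.30 (SE 0.18) in PT, -0.37 (SE 0.21) in DCT and -0.14 (SE 0.21) in LOH on the log2 scale, with overlapping groups in each, and the LOH value turned to 0.047 without AKI-CKD mouse 3. The PT value was -0.17 without Control mouse 1. With only the DCT cells led by Slc12a3, edgeR also called 0 of 8 members in each comparison, and Ppargc1a differed by -0.44 (SE 0.16) and Esrra by 0.36 (SE 0.15) between AKI-CKD and Control.

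Nrf1, Gabpa, Tfam, Tfb2m and Polrmt had log2 differences between -0.24 and 0.29 in the 3 segments, with overlapping groups in all. Tfam in PT was level, at 27.3, 33.0 and 41.9 CPM in Control and 34.5, 31.0 and 37.0 CPM in AKI-CKD, a log2 difference of 0.00 (SE 0.18). The counts read as follows against all genes tested. In PT 1 of 8 members (Esrra) did not overlap between AKI-CKD and Control, where 20.7% of all genes did not, and 0.0444% of all genes passed the edgeR test. In DCT it was 2 of 8 (Esrra and Ppargc1a) against 16.4% of all genes, with 0% of genes passing, and in LOH 1 of 8 (Esrra) against 17.1%, with 0.0288% passing. At an unadjusted p under 0.05 stood 1, 2 and 1 of the 8 members in PT, DCT and LOH, beside 1994 of 18004, 1117 of 11845 and 1248 of 10406 of all genes, and DESeq2 also called 0 of 8 in each.

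**Figure D2:**
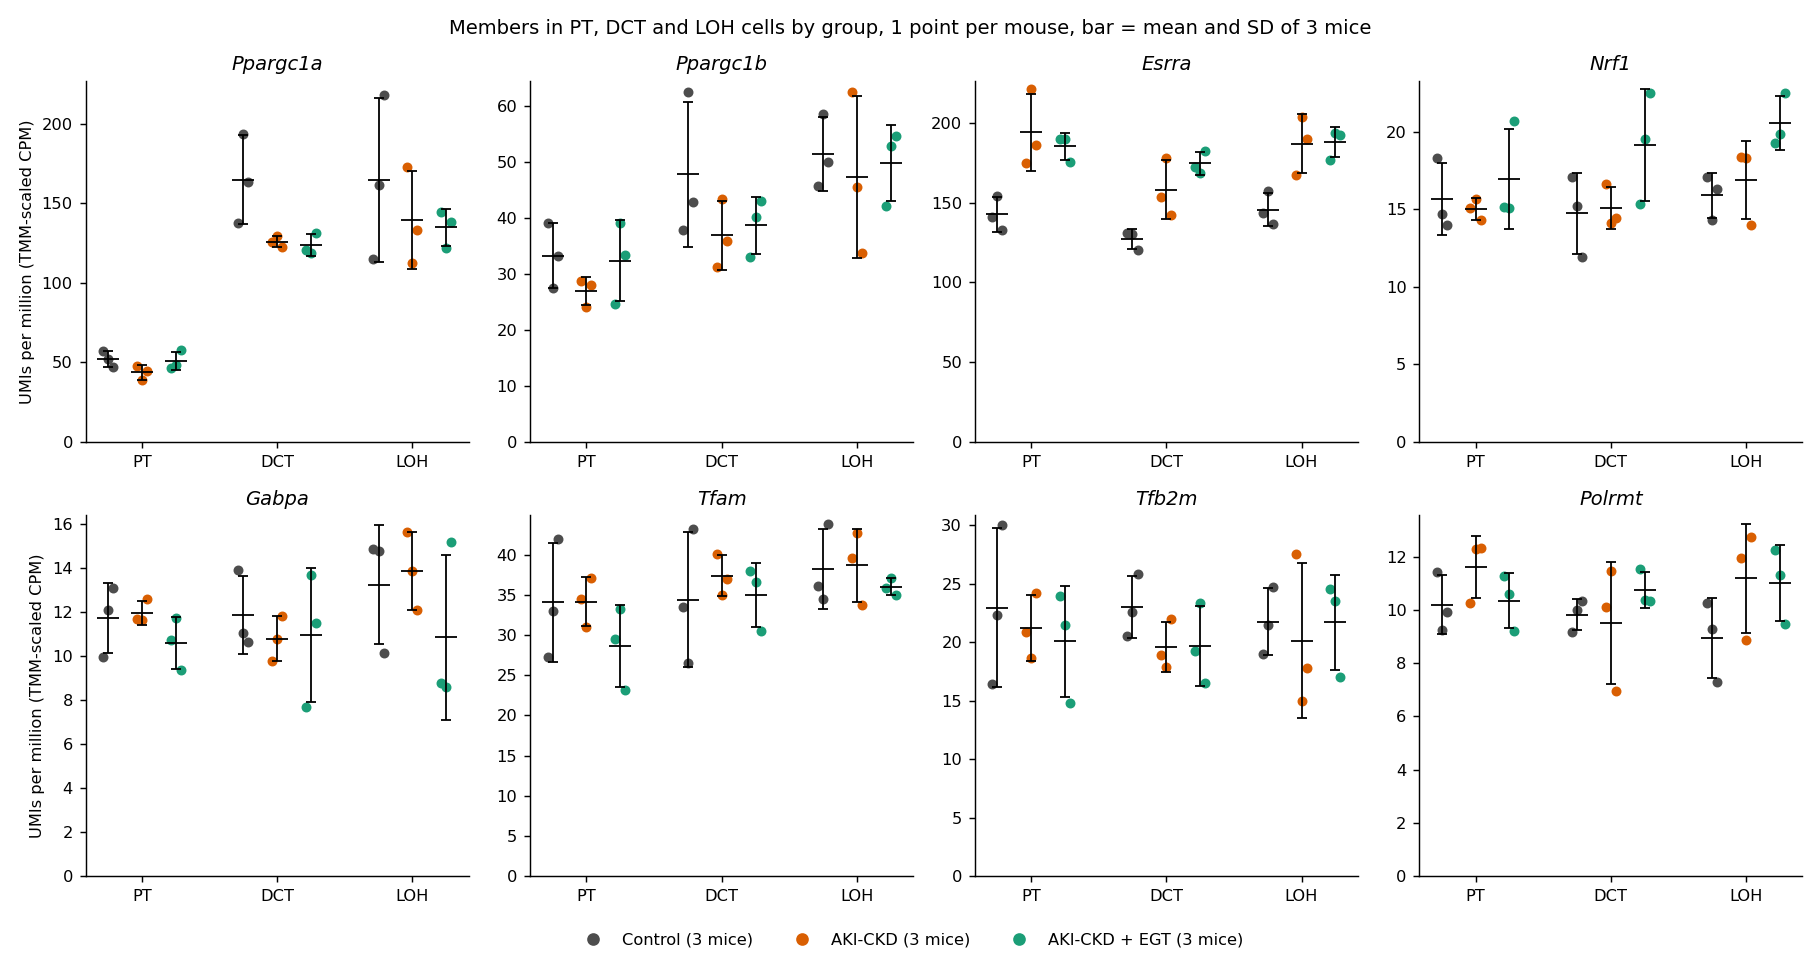
TMM-scaled CPM of the 8 genes in PT, DCT and LOH by group; points are single mice and bars are means of 3 mice. Esrra of the AKI-CKD mice lay above that of the Control mice in all 3 segments (PT 175 to 221 against 133 to 154 CPM), and Ppargc1a in DCT lay below (123 to 129 against 138 to 194 CPM).

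The comparison of AKI-CKD + EGT with AKI-CKD mice addressed whether ergothioneine moved the programme during cisplatin. No member passed the edgeR test in any segment (0 of 8 in each), and DESeq2 also called 0. At an unadjusted p under 0.05 stood 0 of 8 in each, beside 2690 of 18004 genes in PT, 1521 of 11845 in DCT and 1560 of 10406 in LOH. In TMM-scaled CPM Nrf1 was the only member whose groups did not overlap, and only in LOH. There the AKI-CKD mice stood at 18.4, 18.3 and 14.01 CPM and the AKI-CKD + EGT mice at 19.3, 19.9 and 22.5, with a log2 difference of 0.31 (SE 0.22, edgeR adjusted p = 0.539). That is 1 of 8 members where 18.1% of all genes did not overlap and 0.356% passed the test. The Nrf1 levels in LOH rest on few UMIs, 20, 33 and 22 in the AKI-CKD mice and 22, 44 and 107 in the AKI-CKD + EGT mice. In PT 0 of 8 did not overlap, against 20.8% of all genes, with 0% passing, and in DCT 0 of 8 against 17.3%, with 0% passing. Without AKI-CKD mouse 3 the LOH difference of Nrf1 was 0.18. Nrf1 differed by 0.35 (SE 0.21) in DCT and 0.17 (SE 0.15) in PT, with groups overlapping in TMM-scaled CPM, and by 0.21 and 0.019 without AKI-CKD + EGT mouse 3. Other mean differences in PT were Ppargc1a 0.22 (SE 0.13, AKI-CKD + EGT mice at 46.7, 48.4 and 57.7 CPM), Ppargc1b 0.27 (SE 0.18, at 24.7, 39.1 and 33.4 CPM) and Tfam -0.26 (SE 0.18, at 29.5, 33.2 and 23.1 CPM), all on the log2 scale. Without AKI-CKD + EGT mouse 3 those of Ppargc1a and Tfam were 0.13 and -0.11, and without AKI-CKD + EGT mouse 2 that of Ppargc1b was 0.10. Esrra differed between the cisplatin groups by -0.07 (SE 0.13) in PT, 0.14 (SE 0.14) in DCT and 0.01 (SE 0.14) in LOH. The AKI-CKD mice enter both comparisons, so the values are given side by side only.

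**Figure D3:**
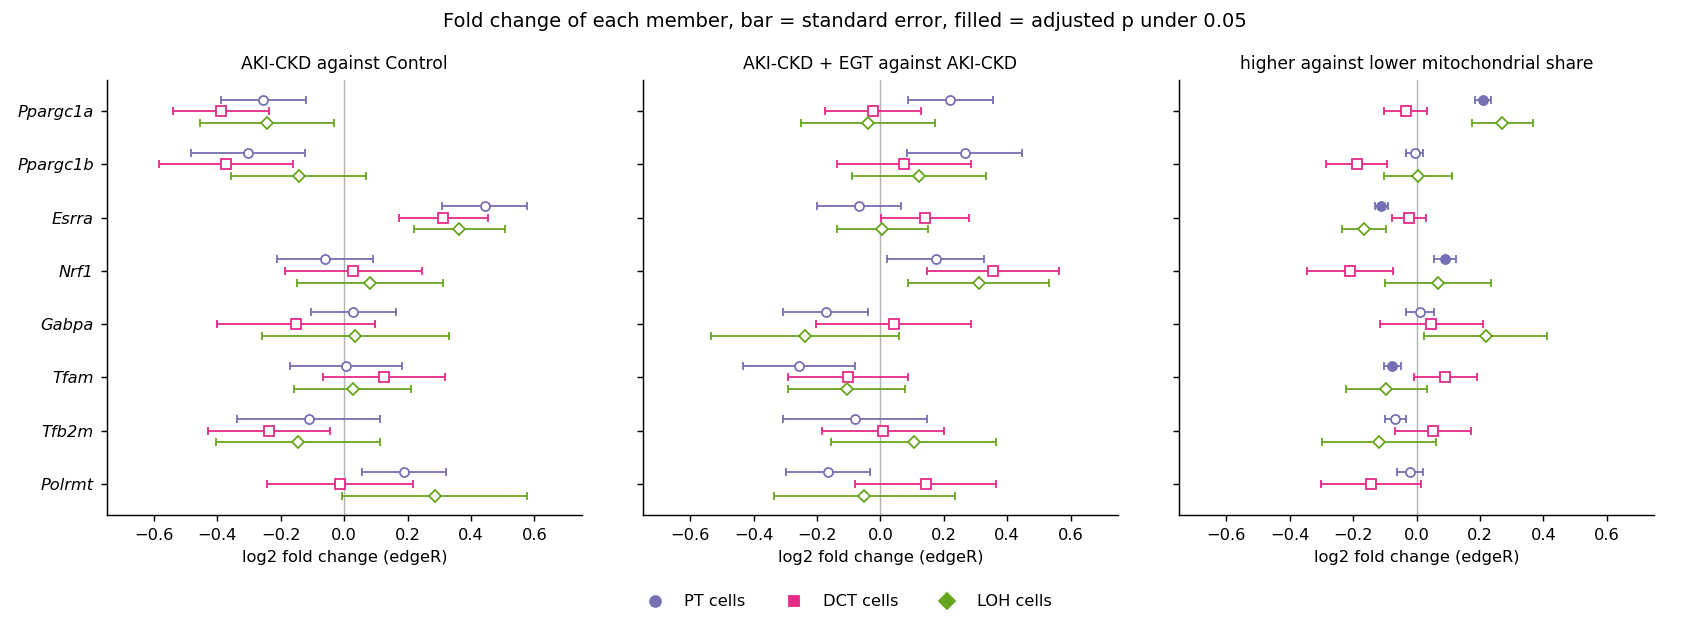
log2 differences of the 8 genes with their standard errors (bars) from edgeR in PT, DCT and LOH, with AKI-CKD compared to Control and AKI-CKD + EGT compared to AKI-CKD; 0 means equal levels. Esrra stood at 0.44, 0.31 and 0.36 in the first comparison, and no value in either comparison passed the adjusted threshold.

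The other genes of the programme gave no call between groups with edgeR over the 9 mice, though Esrrg did under some other settings. Lists of other PGC-1 and oestrogen-related receptor family genes, regulators upstream of PGC-1, partners of Nrf1 and Gabpa, genes of mitochondrial DNA transcription and replication, and genes of mitochondrial RNA processing held 47 genes tested in PT, 46 in DCT and 41 in LOH, of which 0 passed the edgeR test in either comparison. At an unadjusted p under 0.05 stood 5, 2 and 3 of them in PT, DCT and LOH for AKI-CKD against Control, and 5, 3 and 2 in the other comparison, beside the counts over all genes given above for the members. DESeq2 called 0 in the first comparison and Esrrg in each segment in the second, where it called 398 of 18004, 41 of 11845 and 94 of 10406 of all genes. In that second comparison edgeR also called Esrrg in DCT and LOH without the filter on low counts (beside 528 of 25047 and 480 of 23360 genes) and in LOH without AKI-CKD + EGT mouse 1 (beside 297 of 10888), and called Esrrb in LOH without the Harmony correction (beside 478 of 11133). Their median log2 difference between AKI-CKD and Control was 0.03 in PT, -0.06 in DCT and 0.03 in LOH, beside -0.01, -0.02 and -0.003 for all genes. Between AKI-CKD + EGT and AKI-CKD it was -0.06, 0.04 and 0.05, beside -0.01, 0.01 and 0.02 for all genes. Among the lists' highest genes, Esrrg, a relative of Esrra that is active in mitochondria-rich distal tubule, ran from 161 CPM in PT to 288 in DCT and 511.6 in CD-PC. Its log2 differences for AKI-CKD against Control were -0.79 (SE 0.32, edgeR adjusted p = 0.425) in PT, -0.50 (SE 0.24) in DCT and -0.52 (SE 0.23) in LOH. For AKI-CKD + EGT against AKI-CKD they were 1.05 (SE 0.32, edgeR adjusted p = 0.239) in PT, 0.92 (SE 0.24, edgeR adjusted p = 0.297) in DCT and 1.00 (SE 0.23, edgeR adjusted p = 0.0701) in LOH. Slirp, an RNA stability factor of mitochondria, stood at 228 CPM in PT, Lonp1, the matrix protease that turns over Tfam, at 73.7, and Hcfc1, listed as a partner of Nrf1 and Gabpa, at 15.8.

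The mitochondrial UMI share itself spanned a wider range among the Control mice, and among the AKI-CKD + EGT mice, than the difference of the group means compared below. The SD of the AKI-CKD + EGT mice, 1.04 points in PT, 2.63 in DCT and 2.34 in LOH, was smaller than their difference from AKI-CKD. In PT it was 5.93, 3.86 and 1.48% in the Control mice, 3.04, 2.58 and 1.92% in the AKI-CKD mice, and 3.43, 4.13 and 5.48% in the AKI-CKD + EGT mice. In DCT it was 7.37, 4.93 and 1.68% in Control, 3.11, 2.65 and 2.39% in AKI-CKD, and 3.23, 5.89 and 8.48% in AKI-CKD + EGT, and in LOH 7.54, 5.25 and 2.08%, then 3.63, 2.98 and 2.45%, then 3.93, 6.10 and 8.61%. The Control mice spanned the AKI-CKD mice in each segment, while every AKI-CKD + EGT mouse lay above every AKI-CKD mouse. AKI-CKD + EGT exceeded AKI-CKD by 1.83 percentage points in PT, 3.15 in DCT and 3.19 in LOH (exact permutation test, two-sided p = 0.1 in each, the smallest that 3 against 3 mice allow). AKI-CKD and Control differed by -1.24 points in PT (exact permutation p = 0.5), -1.94 in DCT (exact p = 0.4) and -1.94 in LOH (exact p = 0.4). Single mice set the size of both. Without Control mouse 1 the difference from Control was -0.16 points in PT, -0.59 in DCT and -0.64 in LOH, and without Control mouse 3 it was -2.38, -3.43 and -3.37. Without AKI-CKD + EGT mouse 3 that group exceeded AKI-CKD by 1.27 points in PT, 1.84 in DCT and 2.00 in LOH. The 15% limit removed the most cells from AKI-CKD + EGT mouse 3 and Control mouse 1, which had the highest shares, and the fewest from Control mouse 3 (0.909%), which had the lowest. How much of the share reflects damaged cells was not tested.

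Whether members followed the mitochondrial share across mice was asked for 24 relations, 8 genes in 3 segments, with levels per 1000000 non-mitochondrial UMIs (non-mitochondrial CPM) so that the share does not enter the denominator. Ppargc1a and Nrf1 in PT and Nrf1 in DCT rose with the share, and the other 21 relations did not pass. Ppargc1a in PT had Pearson's r = 0.87 (exact permutation p = 0.00355, adjusted p = 0.0284) and Spearman's rho = 0.92 (exact permutation p = 0.00131, adjusted p = 0.0243). Without Control mouse 1 and AKI-CKD + EGT mouse 3, the mice farthest from the median share, r was 0.65, and within groups, after removal of each group's mean, it was 0.82. Nrf1 in PT had r = 0.85 (exact permutation p = 0.00233, adjusted p = 0.0284) and rho = 0.85 (exact permutation adjusted p = 0.0486), with r = 0.74 without those mice and 0.81 within groups. Nrf1 in DCT had r = 0.87 (exact permutation p = 0.00250, adjusted p = 0.0284) and rho = 0.90 (exact permutation adjusted p = 0.0243), with r = 0.88 without those mice and 0.94 within groups. In the DCT cells led by Slc12a3 alone its r was 0.75 (exact permutation p = 0.0201, adjusted p = 0.161) and its rho 0.73 (exact permutation adjusted p = 0.201), so the call in DCT rests on the joined class. With these cells Nrf1 in PT kept its r past the threshold (exact permutation adjusted p = 0.0426) and not its rho (exact permutation adjusted p = 0.0729), since the adjustment runs over all 24 relations.

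These coefficients sat high among genes but were not rare. In PT 2.68% of 7512 genes of at least 10 non-mitochondrial CPM had an r as large as that of Ppargc1a and 3.77% one as large as that of Nrf1, and in DCT 3.40% of 8183 genes reached that of Nrf1. The nuclear noncoding RNA Malat1 moved with the share as well, with r = 0.65 in PT, 0.92 in DCT and 0.84 in LOH over the same 9 mice, and so did the nuclear noncoding RNA Neat1, with r = 0.82, 0.97 and 0.78. Their part in the relations of Ppargc1a and Nrf1 was not tested. In DCT and LOH Ppargc1a gave r = 0.14 and -0.36. Tfam and Tfb2m, whose products act on mitochondrial DNA, leaned the other way in PT, with r = -0.56 and -0.55 (exact permutation adjusted p = 0.424 for both). Within groups their r was -0.71 and -0.93, and without the mice farthest from the median share -0.39 and -0.25, values for which no test was made. With TMM-scaled CPM in place of non-mitochondrial CPM, an alternative chosen after seeing the data, Gabpa, Tfam and Tfb2m in PT passed with r = -0.87, -0.85 and -0.81, beside r = 0.79 for Ppargc1a and 0.83 for Nrf1. None of these 5 passed by rho on that scale (exact permutation adjusted p from 0.129 to 0.173), and Nrf1 in DCT did (exact permutation adjusted p = 0.0487).

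**Figure D4:**
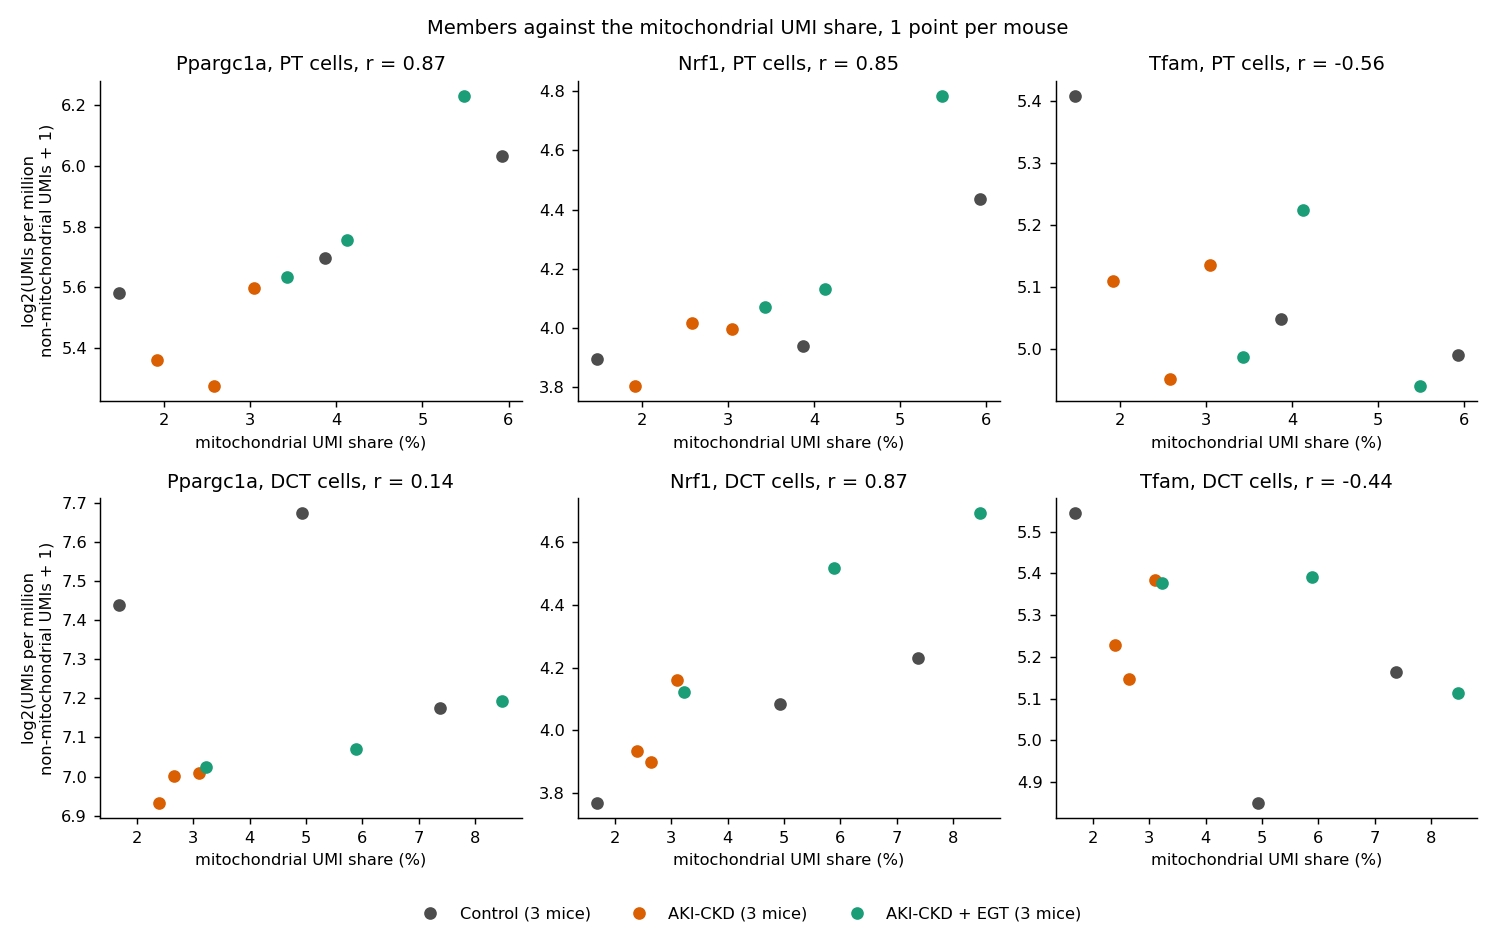
Mitochondrial UMI share (percent, horizontal axis) against the log2 of the level in non-mitochondrial CPM plus 1 (vertical axis) for Ppargc1a, Nrf1 and Tfam in PT and DCT; each point is 1 mouse, coloured by group. Ppargc1a (r = 0.87) and Nrf1 (r = 0.85) rose with the share in PT and Nrf1 did in DCT (r = 0.87), while Ppargc1a in DCT had r = 0.14.

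The same question can be put within a mouse. Cells of each mouse and cluster were divided at their median mitochondrial share, summed, and compared as pairs over the 9 mice with edgeR's quasi-likelihood test with the mouse as a block and the mitochondrially encoded genes removed. In PT the cells of higher share held a mean of 5.80% mitochondrial UMIs and those of lower share 2.00%. Ppargc1a was higher in the cells of higher share in 9 of 9 mice. The cells of lower share ran from 35.3 in AKI-CKD mouse 2 to 70.2 in AKI-CKD + EGT mouse 3 non-mitochondrial CPM (mean 47.4 ± 11.2, SD, n = 9), and those of higher share, with the same mice at the ends, from 41.3 to 80.8 (mean 57.6 ± 12.2). The log2 difference was 0.21 (SE 0.025, edgeR adjusted p = 1.5e-07).

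Of the other PT members, Nrf1 was higher in 9 of 9 mice at 0.09 (SE 0.034, edgeR adjusted p = 0.0422), Esrra lower in 7 of 9 at -0.11 (SE 0.020, edgeR adjusted p = 5.6e-05), and Tfam passed at -0.08 (SE 0.026, edgeR adjusted p = 0.0212). Tfam's direction rests on the TMM scaling: in non-mitochondrial CPM it was higher in 5 of 9 mice with a mean log2 difference of 0.00, and that of Esrra was -0.03. The call of Nrf1 was lost when any of 8 of the 9 mice was left out, with DESeq2 (adjusted p = 0.205), with only the outer strata of the share compared, and without the highest Scrublet scores, and that of Tfam was lost without the Harmony correction (edgeR adjusted p = 0.0805). Ppargc1b (-0.01), Gabpa (0.01), Tfb2m (-0.07) and Polrmt (-0.02) did not pass, and in non-mitochondrial CPM the signs of Ppargc1b (0.07, higher in 8 of 9 mice), Tfb2m (0.01, 7 of 9) and Polrmt (0.05, 6 of 9) turned. In all 4 of 8 members passed, 2 in each direction, where 35.8% of all genes passed, 17.6% higher and 18.2% lower in the cells of higher share, so a call by itself is common here.

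Depth and other RNAs moved with the same split. The PT cells of higher share had a mean median of 2217 non-mitochondrial UMIs against 3501. With the split made within 3 strata of that UMI number, medians came to 2665 against 2866, and Ppargc1a at 0.19 (edgeR adjusted p = 7.4e-06; higher in 9 of 9 mice) and Esrra at -0.09 (edgeR adjusted p = 0.00031) still passed, whereas Nrf1 at 0.01 (edgeR adjusted p = 0.809) and Tfam at -0.03 (edgeR adjusted p = 0.464) did not. With the split made within mice without regard to cluster, Ppargc1a passed at 0.20 and Ppargc1b at -0.16 (edgeR adjusted p = 0.00056), and Esrra did not at -0.06. In the PT cells of higher share Malat1 was higher in 9 of 9 mice (mean log2 difference 0.46), as were the summed 9 DCT markers (273 against 202 non-mitochondrial CPM, 0.39), the 9 LOH markers (498 against 407 non-mitochondrial CPM) and 8 markers of injured tubule (0.30). Markers of CD-IC (0.47), B cells (0.35), CD-PC (0.30), endothelial cells (0.30), myofibroblasts (0.27) and macrophages (0.22) were also higher in 9 of 9 mice. Those of podocytes (0.28), neutrophils (0.16) and fibroblasts (0.12) were higher in 7 of 9, and those of T cells (0.09) in 6 of 9. Markers of cycling cells (-0.09, higher in 1 of 9) and of the thin limb (-0.03, 3 of 9) were lower on average. Neat1 differed by 0.09 and was higher in 7 of 9 mice. The 14 PT markers were lower in 9 of 9 mice (-0.05), and the DCT markers in DCT cells stood at 6774 to 6920 on the same scale. The part of these in the difference of Ppargc1a was not tested.

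**Figure D5:**
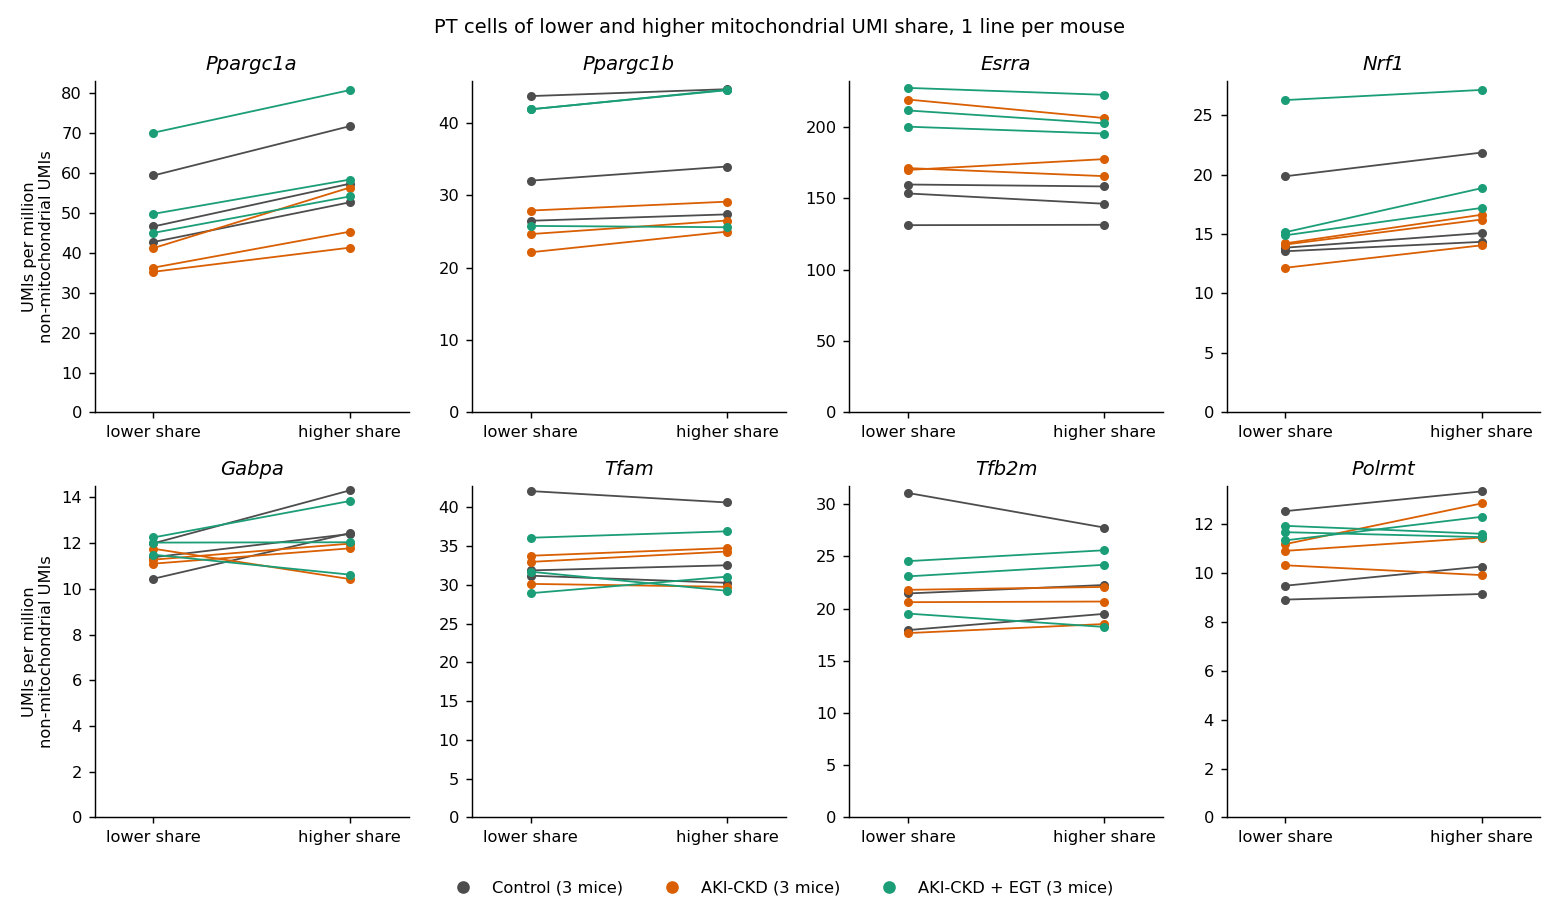
Level in non-mitochondrial CPM of the 8 genes in PT cells of lower and of higher mitochondrial share; each line joins the paired values of 1 mouse, coloured by group. Ppargc1a rose in 9 of 9 mice, from a mean of 47.4 to 57.6, and Nrf1 in 9 of 9, while Esrra was lower in 7 of 9.

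In DCT and LOH the split gave no member past the threshold with the main settings, though a member passed in LOH without the Harmony correction, as given below. In DCT 0 of 8 passed (edgeR, 0 at an unadjusted p under 0.05, 0 with DESeq2), where 4.4% of all genes did, 2.01% higher and 2.38% lower, and Ppargc1a was higher in 5 of 9 mice with a log2 difference of -0.03 (SE 0.068), and with only the DCT cells led by Slc12a3 0 of 8 passed as well. In LOH 0 of 7 members tested passed (edgeR, 0 with DESeq2), where 3.75% of all genes passed, 1.16% higher and 2.59% lower. Polrmt was below the count minimum. At an unadjusted p under 0.05 (edgeR) stood 2 of the 7, a count for which the share over all genes is not given. Ppargc1a in LOH was higher in 7 of 9 mice at 0.27 (SE 0.095, edgeR adjusted p = 0.118). Leaving out AKI-CKD + EGT mouse 3 brought it to 0.41 (edgeR adjusted p = 0.00121). In those LOH cells of higher share the LOH markers were also higher (mean log2 difference 0.38, in 8 of 9 mice) and the PT markers lower (-0.30, higher in 1 of 9). The part of PT RNA in that difference was not tested.

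Whether the difference by share was itself unequal between segments was tested for 24 pairs, 8 genes by 3 pairs of segments, on the levels in non-mitochondrial CPM. Ppargc1a had a larger difference in PT than in DCT in 8 of 9 mice, by 0.27 (exact permutation p = 0.0156, adjusted p = 0.0938), and a smaller one in DCT than in LOH in 9 of 9, by -0.37 (exact permutation p = 0.0039, the smallest 9 mice allow, adjusted p = 0.0938). No pair of the 24 passed after adjustment, so the presence of a call in PT and its absence in DCT does not show that the segments differ. A lone pair at the smallest p that 9 mice allow cannot pass after adjustment over 24, so the lack of calls does not show that the segments are alike either.

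Among the 47 other programme genes tested in PT, 7 were higher and 8 lower in the cells of higher share, where, as given above, 17.6% of all genes passed as higher and 18.2% as lower. Those higher were Esrrg at 0.46, Sirt1, a deacetylase acting on PGC-1alpha, at 0.28, Pnpt1 at 0.22, Gabpb2, a partner of Gabpa, at 0.18, the corepressors Nrip1 at 0.16 and Ncor1 at 0.09, and Prkaa2 at 0.07, all log2 differences. Those lower included Lonp1 at -0.17, the RNA stability factors Slirp at -0.16 and Lrpprc at -0.09, Mterf4 at -0.16, the RNA-processing enzymes Elac2 at -0.14 and Hsd17b10 at -0.12, the mitochondrial topoisomerase Top1mt at -0.12, and the fatty acid receptor Ppard at -0.12. These are on the TMM scale, on which each member's difference stood lower than in non-mitochondrial CPM, some with another sign. Neither values in non-mitochondrial CPM nor those within strata of the UMI number are given for these genes. The directions of small differences thus hold for the main setting only. The list of mitochondrial RNA processing and stability had 1 of 12 higher and 4 of 12 lower, and that of mitochondrial DNA transcription and replication 0 of 15 higher and 3 of 15 lower. The upstream regulators had 2 of 9 higher and 0 lower, the other PGC-1 and oestrogen-related receptor family genes 3 of 8 higher and 1 of 8 lower, and the partners of Nrf1 and Gabpa 1 of 3 higher and 0 lower. The median log2 difference of the 47 genes was 0.03, beside 0.01 for all genes. In LOH 1 of 28 passed, Esrrg at 0.35 (edgeR adjusted p = 0.0281; 0 with DESeq2). That call was lost without Control mouse 3, without any 1 of the AKI-CKD mice, without AKI-CKD + EGT mouse 1, with only the outer strata of the share compared, within strata of the UMI number, and without the highest Scrublet (doublet) scores. In DCT 0 of 37 passed with edgeR and 0 with DESeq2. At an unadjusted p under 0.05 (edgeR) stood 3 of the 37, where the share over all genes is likewise not given.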

How the data were processed

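Kidney single-cell libraries of 9 mice were measured on a droplet platform (DNBelab C-TaiM4). Per the labels, the authors made the deposited count matrices (UMI counts per gene and barcode, 1 per mouse, unnormalized) with PISA 1.0 against genome build GRCm39; counting at the 3′ end gives no level per transcript length, so members were not ranked against each other. From the deposited counts, barcodes having 1000 or more UMIs, 500 or more genes and a mitochondrial share of no more than 15% were kept. Scanpy 1.11.5 (Python 3.11.15) gave 2000 variable genes, with the 8 members, the programme lists, mitochondrially encoded and ribosomal protein genes and Malat1 kept out, then 30 components, Harmony correction by library, 20 neighbours and Leiden clustering at resolution 1.1. A cluster was named when at least 3 markers of a type stood at least 2-fold above the other clusters. Clusters led by haemoglobin genes, or with no marker of their type (for PT, S1 and S3 markers included) among their leading 10 genes, stayed unnamed, a rule set after the clusters were seen. A cluster of 9813 cells led by Cxcl10 and Cxcl1 was kept as PT by the S1 marker Spp2, with 0 of the 14 PT markers among its leading 10 genes and 6 at least 2-fold up. Scrublet called 3924 of 17196 cells in AKI-CKD + EGT mouse 1 and 0 to 2 in each other library, so its cutoff did not work, no cell was removed as a doublet, and an alternative dropped the 6% of cells that scored highest in each library. Sums per mouse and cell type were tested with edgeR 4.0.16 (R 4.3.3; TMM, its default filter on low counts, 1 fit of all 9 mice per cell type), with DESeq2 1.42.0 as an alternative. The scripts were tested on simulated counts with known changes. For AKI-CKD against Control a log2 change of 0.5 was recovered in 3, 1 and 3 of 67 genes in PT, DCT and LOH, and a change of 1 in 50, 33 and 42. For AKI-CKD + EGT against AKI-CKD it was 8, 1 and 5, and 59, 31 and 47. A lack of calls between groups thus does not show that member differences of the size given here are absent. Promoters came from a RefSeq table of build GRCm38.p6, which is not the build of the counts, so its coordinates stand for that table only. Fastkd4 and Akr1b3 of the lists were not in the matrices used. Library totals are the depth behind each value, and exact permutation tests over 3 against 3 mice cannot go below p = 0.1. The members and lists were chosen with earlier results of these data known. The genes named are the 8 members, the highest gene of each programme list, the list genes that passed a test, and the 3 genes most like each member. Fits with other samples, filters, library sizes, cell limits, integration and a replicate block were alternatives.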

Additional observations from a re-analysis of the deposited data

How the results depend on the processing

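Between groups, 0 of 8 members passed in PT, DCT and LOH in both comparisons under every alternative run: DESeq2, every gene tested whatever its count, library sizes leaving out mitochondrial, ribosomal protein and Malat1 counts, 6 mice only, no mitochondrial limit, no Harmony correction, removal of the highest Scrublet scores, and each mouse left out. Of 832 such values of the members, with those from only the DCT cells led by Slc12a3, 65 changed direction. With the replicate number as a block it was also 0 of 8 in each. Deviations of same-numbered mice had r from -0.42 to 0.33 in PT, from -0.42 to 0.20 in DCT and from -0.24 to 0.04 in LOH. Mice of other groups and numbers had r from -0.33 to 0.43, from -0.25 to 0.44 and from -0.11 to 0.25. The labels do not say what the number stands for, and whether same-numbered mice shared a step of handling was not tested.

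Over all genes, AKI-CKD against Control gave 8, 0 and 3 calls in PT, DCT and LOH with edgeR, 193, 4 and 32 with DESeq2, 100, 276 and 230 without the filter on low counts, and 0 in each with the block. AKI-CKD + EGT against AKI-CKD gave 0, 0 and 37 with edgeR, 398, 41 and 94 with DESeq2, 221, 528 and 480 without the filter, and 0 in each with the block. With a mouse left out the counts ran from 0 to 12, 0 to 6 and 0 to 18 in the first comparison and from 0 to 50, 0 to 221 and 0 to 297 in the second, whose highest counts all came without AKI-CKD + EGT mouse 1. Fits of 6 mice gave 3 in DCT and 19 in LOH in the first comparison, removal of the highest Scrublet scores 0 in LOH, and no Harmony correction 3 in PT there and 478 in LOH in the second. The split called 421 genes in DCT, 139 with only the DCT cells led by Slc12a3, 90 without Harmony correction and 260 with DESeq2. In LOH it called 298, 111 within strata of the UMI number, 1460 without Harmony correction, 190 without the highest Scrublet scores, 197 with DESeq2, and 178 to 479 with a mouse left out.

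In the PT split 4 members passed, beside 5443 calls over all genes. It was 3 with DESeq2 (beside 4153 of all genes) and with only the outer strata of the share compared (beside 5770). It was also 3 without Harmony correction (beside 4367) and without the highest Scrublet scores (beside 5488), and 3 to 4 with a mouse left out (beside 4925 to 5247). It was 2 with the median taken within mice only (beside 4468) and 2 within strata of the UMI number (beside 4288). In these last settings the log2 difference of Tfb2m turned from -0.07 to 0.016 and 0.0072. In the LOH split 0 passed, 1 did without Harmony correction, and 0 to 1 with a mouse left out, the 1 being Ppargc1a without AKI-CKD + EGT mouse 3. Of the relations over mice 3 passed, and 6 did with TMM-scaled CPM and 2 with only the DCT cells led by Slc12a3, both chosen after seeing the data. The cause of these changes was not tested. The difference in mitochondrial share kept its direction in each segment under every alternative. Single members were followed across alternatives only where the difference exceeded 1.5 times its standard error, a limit set after seeing the values. PT RNA in other cell types limits any level below that of PT.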

Other observations

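The PT cells left out by the 15% mitochondrial limit carried some members at other levels than the kept ones. Given the type most common among their 15 nearest kept neighbours, 11375 of them were PT cells, of which Control mouse 1 gave 3719 and AKI-CKD + EGT mouse 3 gave 2189. Levels are UMIs per 1000000 non-mitochondrial UMIs. Ppargc1a stood in the left-out and the kept PT cells at 78.3 and 64.4, 71.1 and 50.9, and 96.2 and 46.9 in the Control mice, at 68.6 and 47.4, 71.3 and 37.7, and 74.4 and 40.1 in the AKI-CKD mice, and at 77.8 and 48.6, 87.8 and 53.0, and 97.4 and 74.1 in the AKI-CKD + EGT mice. It was thus higher in 9 of 9 mice. The other values are pooled over mice for the left-out cells, and so weighted to those mice, beside the mean of 9 mice for the kept cells. Nrf1 stood at 30.5 beside 16.8 (higher in 8 of 9), Ppargc1b at 43.1 beside 32.5 (8 of 9) and Polrmt at 15.3 beside 11.1 (8 of 9). Tfam stood at 28.6 beside 33.2 and was higher in 2 of 9 mice, Tfb2m at 21.9 beside 22.01 (3 of 9), Gabpa at 12.8 beside 11.8 (5 of 9) and Esrra at 182 beside 181 (6 of 9). In DCT (3581 left-out cells) Ppargc1a stood at 134 beside 145 and was higher in 4 of 9 mice, and in LOH (1535 left-out cells) at 139 beside 154 and higher in 6 of 9. Nrf1 stood at 25.4 beside 17.2 in DCT (5 of 9), but 94 of its 133 UMIs there came from AKI-CKD + EGT mouse 3, in which the left-out and kept DCT cells stood at 24.1 and 24.9. In LOH it stood at 17.8 beside 18.7 (4 of 9). No test was made of these values.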
